A study of Mus musculus with 8 samples.

Results

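The SLAM family is a set of immune cell surface receptors whose genes lie close together on mouse chromosome 1, and 9 of its genes are described here in regulatory T cell fractions with and without interleukin 10. The 9 genes, Slamf1, Ly9, Slamf6, Cd84, Cd48, Cd244a, Slamf7, Slamf8 and Slamf9, were chosen by name as family members. All 9 were measured, each by 1 probe set, among 6986 genes. Cd244a is the annotation's current symbol for the gene also called Cd244.

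RNA came from CD4+CD25+ lymphocytes, the T cell fraction rich in Foxp3+ regulatory T cells, sorted by flow cytometry from the para-aortic lymph nodes that drain the uterus of mice at day 9.5 of pregnancy. The mutant genotype was IL10-/- (4 arrays), a mutant of the anti-inflammatory cytokine gene Il10 backcrossed to the C57BL/6 colony, and the other was IL10+/+ (4 arrays) of the C57BL/6 strain. RNA of 2 to 4 mice was pooled for each array, which makes every replicate a different pool. Only the IL10-/- mice are stated to have had oxytetracycline (2 mg/ml) in their drinking water, so antibiotic and genotype cannot be told apart. Il10 lies on chromosome 1 as the family does, 40.5 Mb before its first gene. Any DNA of another strain kept around the mutation cannot be told apart from the loss of Il10 itself. Balb/c males are named among the animals of the colony, but the sire of these pregnancies is not given in the sources used here.

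Most SLAM receptors bind a receptor of the same kind on the opposing cell, and so act in contacts between T cells, B cells, natural killer (NK) cells and myeloid cells. Their tails recruit the small adaptor SAP and its relatives EAT-2 and ERT, through which kinases such as Fyn are engaged. Where these adaptors are missing, inhibitory phosphatases such as SHIP-1 can be engaged instead. In T cells the family is best known for adhesion to B cells in follicular help and for the development of innate-like T cells.

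No SLAM family gene differed past the threshold between IL10-/- and IL10+/+ arrays. By limma over all 6986 genes, 0 of the 9 members passed an adjusted p of 0.05, where 0.0286% of all genes did. The 2 genes that passed were Ctse (adjusted p = 8.33e-07) and Efcab2 (adjusted p = 0.0201), both higher in IL10-/- arrays. At an unadjusted p under 0.05 limma counted 0 members, against 4.78% of all genes, and the groups overlapped for every member, while they did not overlap for 2.92% of all genes. Of the 9 differences, given throughout as log2 IL10-/- minus IL10+/+, 6 were positive, as were 50.8% of all. Their median was 0.06, beside 0.00 over all genes. The 95% intervals of the 9 differences ran from 0.68-fold at the lowest bound (Slamf9) to 1.55-fold at the highest (Slamf7). In a pool of sorted cells, fewer cells of a type and less RNA per cell cannot be told apart.

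**Figure D1:**
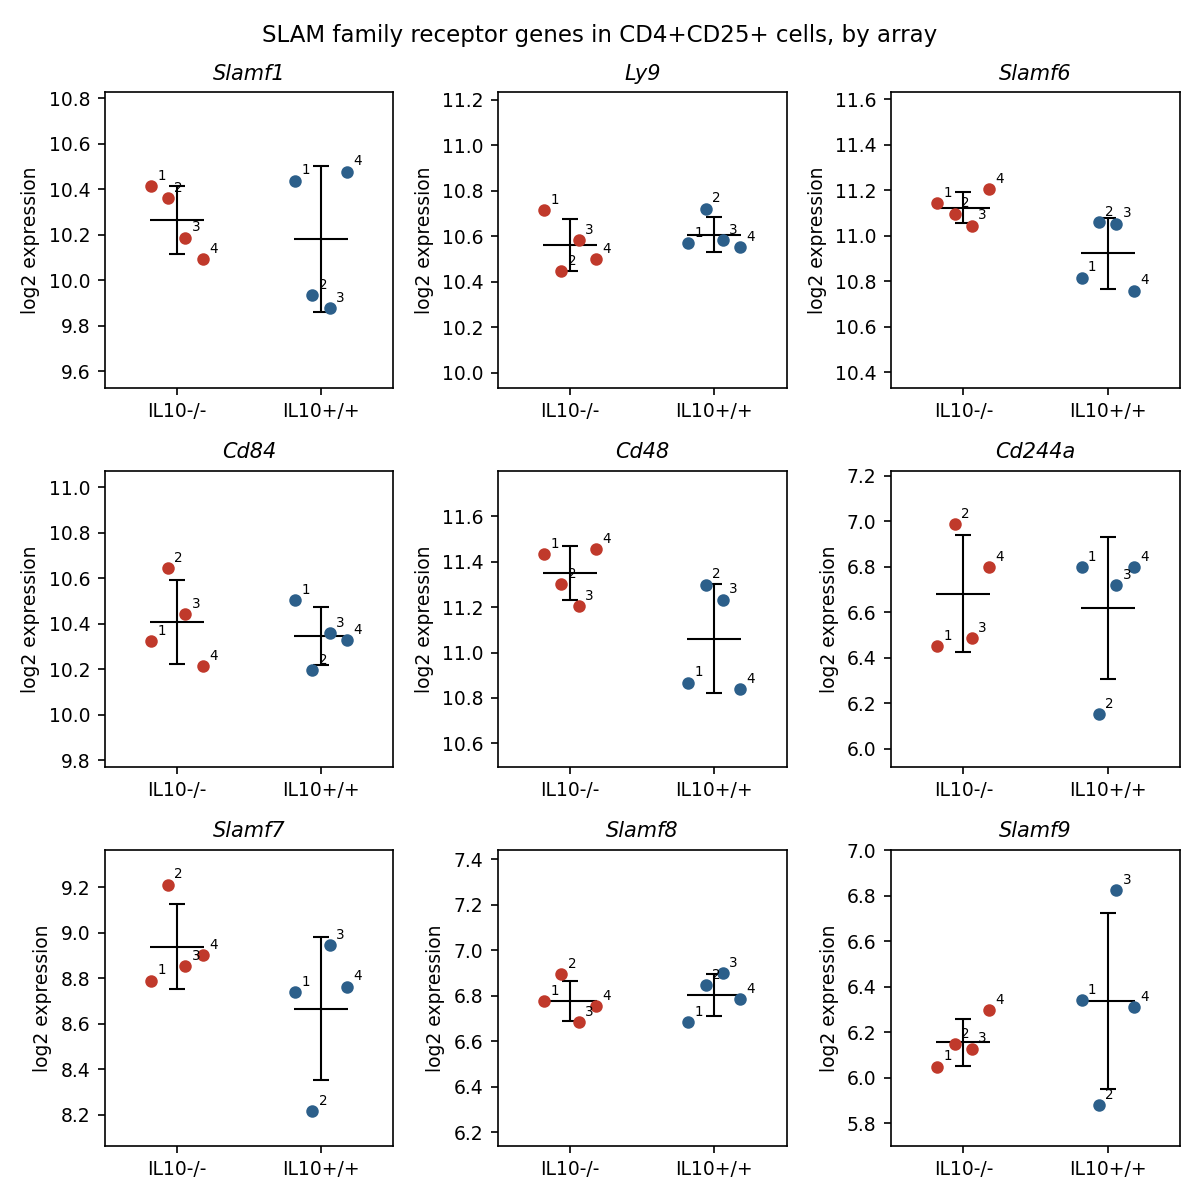
Log2 expression of the 9 SLAM family genes in each array (numbered points), IL10-/- left and IL10+/+ right, with the mean and SD of 4 arrays as bars. Each panel spans the same 1.3 log2 units around its own gene, and the groups overlap in all 9 panels.

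The labelled cell type could be checked only in part. Foxp3, Il2ra and Cd4 were not analysed here. Ctla4, whose product restrains T cell activation, averaged 11.22 in IL10-/- and 11.32 in IL10+/+ arrays, and Ikzf2, which encodes Helios, a factor of regulatory T cells, averaged 11.35 in IL10-/- and 11.54 in IL10+/+ arrays. Of 14 regulatory T cell genes listed, 6 were measured, and 0 passed the threshold. Differences were negative for 4 of them, Ctla4 and Ikzf2 included, and positive for Itgae (0.14) and Socs2 (0.56, SE 0.27), the largest of the 6. Likewise 0 passed among T cell lineage genes (2 of 14 measured), dendritic cell genes (1 of 11), neutrophil and granulocyte genes (5 of 10) and erythroid and platelet genes (2 of 8). Il10 itself read 9.17 ± 0.35 in IL10-/- and 8.10 ± 0.43 in IL10+/+ arrays (SD, n = 4 each). That higher signal in the mutant checks no label, since the altered part of the gene is not given in the sources used here. The arrays IL10-/- replicate 2 and IL10+/+ replicate 4 had the narrowest spread of values (interquartile ranges of 2.15 and 2.17, against 2.32 to 2.58 in the others). The widest, 2.58, was that of IL10+/+ replicate 2.

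Cd48 encodes a receptor held in the membrane by a lipid anchor, which binds CD2 on T cells and 2B4, the product of Cd244a. It had the largest difference of the family. Cd48 read 11.43, 11.30, 11.20 and 11.46 in IL10-/- replicates 1 to 4, and 10.87, 11.30, 11.23 and 10.84 in IL10+/+ replicates 1 to 4. The lower mean of the IL10+/+ arrays came from replicates 1 and 4, while replicates 2 and 3 lay among the IL10-/- values. Cd48 averaged 11.35 ± 0.12 in IL10-/- and 11.06 ± 0.24 in IL10+/+ arrays (SD, n = 4 each), which differ by 0.29 on the log2 scale (SE 0.13, 95% interval -0.00041 to 0.58), or 1.22-fold. By limma the unadjusted p was 0.0503 and the adjusted p was 0.999, and the exact permutation test gave a two-sided p of 0.114. Without IL10+/+ replicate 4, the difference was 0.22.

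Slamf6 encodes Ly108, a receptor that binds itself on the opposing cell and takes part in contacts of follicular helper T cells with B cells. It read 11.14, 11.10, 11.04 and 11.20 in IL10-/- replicates 1 to 4, and 10.82, 11.06, 11.05 and 10.76 in IL10+/+ replicates 1 to 4. As for Cd48, IL10+/+ replicates 1 and 4 were the low arrays and replicates 2 and 3 overlapped the other genotype. The log2 difference was 0.20 (SE 0.11, 95% interval -0.03 to 0.43), with an exact two-sided permutation p of 0.0857. The smallest p that 4 arrays against 4 allow in that test is 0.0286.

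Cd48 and Slamf6 placed the 8 arrays in the same order. Both were highest in IL10-/- replicate 4 and lowest in IL10+/+ replicate 4. Pearson's r between them was 0.99 (exact permutation p = 2.48e-05 over all pairings of the 8 arrays, adjusted p = 0.000893 over the 36 gene pairs of the family). Spearman's rho was 1 (exact permutation p = 4.96e-05, adjusted p = 0.00179). Without the 2 arrays farthest from the median of Slamf6, which were IL10+/+ replicates 1 and 4, r was 0.94. With each array taken from the mean of its genotype, r was 0.98, and of the 6985 other genes Slamf6 was then the one most like Cd48, ahead of Brox (0.98) and Fastkd2 (0.97). This search around Cd48 was chosen after its values were seen. The genotypes hold too few arrays each for a correlation of their own. Over the 8 arrays, r with the interquartile range of the array was 0.29 for Cd48 and 0.28 for Slamf6. With the median signal of the array's olfactory receptor genes, r was -0.52 for Cd48 and -0.51 for Slamf6. The part of these array features in the relation was not tested.

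The probe sets of Cd48 and Slamf6 are set apart by Slamf1 and Cd84 on the chromosome. Those genes did not follow the same order, with r against Cd48 of -0.46 for Slamf1 and -0.28 for Cd84. With each array taken from the mean of its genotype, r against Cd48 was -0.79 for Slamf1 and -0.58 for Cd84, which was not tested. The B cell list (6 of 16 genes measured) had all 6 differences positive. Its mean level was 6.93 to 7.31 over the IL10-/- arrays and 6.81 to 7.00 over the IL10+/+ arrays. The top value was that of IL10-/- replicate 2, the array with the narrowest spread of values. Of these genes only Cd79b (8.72 in IL10-/- and 8.45 in IL10+/+ arrays) averaged above 8.35, the highest mean of 230 olfactory receptor genes. T cells are not known to use olfactory receptors, so expression of the rest of the list is not shown by its signal. Across the 8 arrays the mean level of the B cell list had an r of 0.56 with Cd48. That r was also 0.56 for the plasma cell list and 0.59 for NK cell and CD8 T cell genes. It was 0.61 for follicular helper T cell genes and -0.61 for neutrophil and granulocyte genes. For the dendritic cell list it was 0.38, for regulatory T cell genes 0.35 and for T cell lineage genes 0.32. For erythroid and platelet genes it was 0.14, for macrophage and monocyte genes -0.07 and for signalling partners of SLAM receptors -0.51. All measured genes of the NK cell and CD8 T cell list and of the neutrophil and granulocyte list averaged below 8.35. Gzma, a gene of the NK cell and CD8 T cell list, nevertheless read above 8.35 in some arrays, up to 9.65 in IL10+/+ replicate 2. The part of other cells in the Cd48 difference was not tested.

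**Figure D2:**
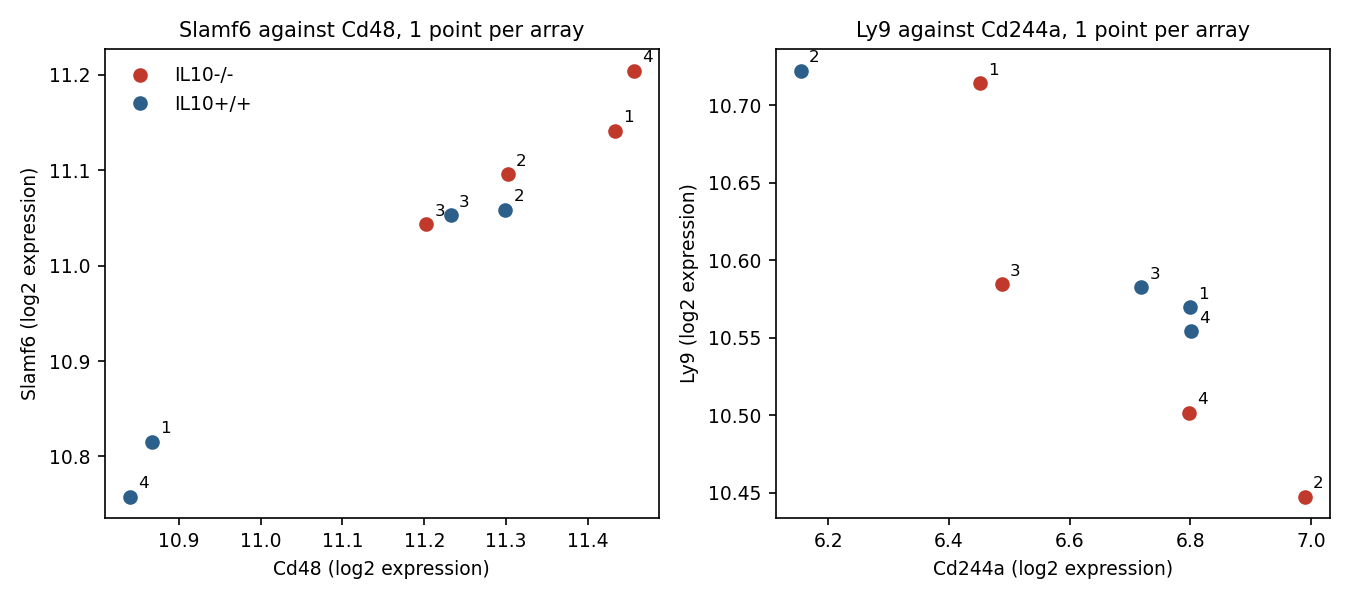
Log2 expression of Slamf6 against Cd48 (left) and of Ly9 against Cd244a (right), 1 point per array numbered by replicate, IL10-/- in red and IL10+/+ in blue. Slamf6 and Cd48 rank the arrays alike, with IL10+/+ replicates 1 and 4 apart at the low end, and Ly9 is low where Cd244a is high.

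Because Cd48 and Slamf6 varied together, the 250 bases before the start site that the RefSeq promoter table gives for each are shown (GRCm38.p6, plus strand, 5′ to 3′). Capitals mark matches to any of the motif letters searched on both strands. These were TGTGGT for RUNX, CCGGAA for ETS, CAGCTG for an E-box, GGAAAA for NFAT and TGANTCA for AP-1, where N is any base. The Cd48 window is chr1:171681742-171681991 and the Slamf6 window is chr1:171917212-171917461. RefSeq's outer gene bounds reach further upstream than either start used, so all 250 bases of the Cd48 window and the last 4 of the Slamf6 window lie inside those bounds.
Cd48: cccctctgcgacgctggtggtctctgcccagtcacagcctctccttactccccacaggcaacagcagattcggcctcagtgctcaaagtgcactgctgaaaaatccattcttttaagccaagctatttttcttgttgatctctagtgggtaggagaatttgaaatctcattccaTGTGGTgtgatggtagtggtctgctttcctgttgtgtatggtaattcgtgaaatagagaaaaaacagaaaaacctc
Slamf6: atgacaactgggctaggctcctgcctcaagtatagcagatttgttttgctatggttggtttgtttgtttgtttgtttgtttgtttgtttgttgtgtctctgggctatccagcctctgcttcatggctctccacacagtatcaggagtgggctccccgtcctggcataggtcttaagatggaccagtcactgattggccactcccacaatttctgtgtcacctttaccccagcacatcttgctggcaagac

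The Cd48 window held 1 match to the RUNX letters and no other, and the Slamf6 window held no match to any of the 5 motifs. A window for 8 of the 9 genes was found in the RefSeq table. Among these 8, the RUNX letters were in 2 (Cd84 and Cd48), the E-box letters in 2 (Slamf8 and Slamf9) and the AP-1 letters in 3 (Cd84, Cd244a and Slamf7). ETS and NFAT letters were in 0. Of all 32841 windows of this length, 14% held the RUNX letters, 12% ETS, 13% the E-box, 20.4% NFAT and 6.75% AP-1. The 8 windows had a median of 3 CpG dinucleotides, beside a median of 6 over all windows. They ran from 1 in Slamf6 to 6 in Slamf9. A match of letters is a description and shows no binding.

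Slamf1 encodes CD150, the founding member of the family, a receptor that binds itself and serves as a costimulator of T cells. It read 10.41, 10.36, 10.19 and 10.09 in IL10-/- replicates 1 to 4, and 10.44, 9.93, 9.88 and 10.48 in IL10+/+ replicates 1 to 4. The IL10+/+ arrays fell to either side of the IL10-/- arrays, with replicates 1 and 4, the low arrays of Cd48 and Slamf6, at the top. The log2 difference was 0.08 (SE 0.16, 95% interval -0.26 to 0.43).

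Cd84 encodes a receptor that binds itself and helps T cells to stay attached to B cells. It read 10.32, 10.65, 10.44 and 10.21 in IL10-/- replicates 1 to 4, and 10.50, 10.20, 10.36 and 10.33 in IL10+/+ replicates 1 to 4. Its lowest values were in IL10+/+ replicate 2 and IL10-/- replicate 4, and the ranges overlapped. The difference was 0.06 (SE 0.12, 95% interval -0.20 to 0.32).

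Ly9 encodes CD229, another receptor that binds itself, known in mice for restraining innate-like T cells. It was among the least variable of the 9, with values from 10.45 to 10.71 in IL10-/- and 10.55 to 10.72 in IL10+/+ arrays. The difference was -0.05 (SE 0.10, 95% interval -0.26 to 0.17).

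Cd244a encodes 2B4, a receptor of NK cells and some T cells whose ligand is CD48. It read 6.45, 6.99, 6.49 and 6.80 in IL10-/- replicates 1 to 4, and 6.80, 6.15, 6.72 and 6.80 in IL10+/+ replicates 1 to 4. IL10+/+ replicate 2 was the lowest and IL10-/- replicate 2 the highest, and the difference between genotypes was 0.06 (SE 0.17, 95% interval -0.32 to 0.45). No detection call was used, and 230 olfactory receptor genes, which T cells are not known to use, had means of up to 8.35. The means of Cd244a (6.65), Slamf8 (6.79) and Slamf9 (6.25) over the 8 arrays lay inside that range, so expression of these 3 genes is not shown by their signal. The median of the olfactory means was 5.00, and Cd244a lay above 89.6% of them, Slamf8 above 91.3% and Slamf9 above 83.0%.

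Ly9 and Cd244a moved in opposite directions across the arrays, with r = -0.90 (exact permutation p = 0.000124 over all pairings of 8 arrays, adjusted p = 0.00223 over 36 pairs). Spearman's rho was -0.93 (exact permutation p = 0.00223, adjusted p = 0.0402). Without the 2 arrays farthest from the median of Ly9 (IL10+/+ replicate 2 and IL10-/- replicate 1), r was -0.78. The interquartile range of the arrays moved with both genes, with an r of 0.72 for Ly9 and -0.79 for Cd244a over the 8 arrays. Its part in the relation was not tested. Of the 36 pairs, Cd48 with Slamf6 and Ly9 with Cd244a were the 2 past an adjusted p of 0.05 by either coefficient.

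Slamf7 encodes CRACC, a receptor of NK cells, activated B cells and plasma cells that binds itself and signals through EAT-2. It read 8.79, 9.21, 8.86 and 8.90 in IL10-/- replicates 1 to 4, and 8.74, 8.22, 8.95 and 8.76 in IL10+/+ replicates 1 to 4. The mean of the IL10+/+ arrays was lowered most by replicate 2, the array that was also lowest for Cd244a. The log2 difference was 0.27 (SE 0.16, 95% interval -0.08 to 0.63), with an unadjusted p of 0.118 by limma and an exact two-sided permutation p of 0.2. Without IL10+/+ replicate 2 the difference was 0.12, the lowest with 1 array left out at a time. The highest was 0.37, without IL10+/+ replicate 3.

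The plasma cell list, of which 5 of 8 genes were measured, had 0 genes past the threshold. Its mean level ran from 7.95 to 8.45 in IL10-/- and from 7.96 to 8.30 in IL10+/+ arrays. The list of NK cell and CD8 T cell genes (4 of 13 measured) ran from 7.49 to 7.95 in IL10-/- and from 7.36 to 8.09 in IL10+/+ arrays, with its top value in IL10+/+ replicate 2. That array had the lowest Slamf7 and Cd244a values, and also the widest spread of values of all arrays.

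Slamf8 and Slamf9 encode receptors best known from macrophages and other myeloid cells, which lack the tail motifs that bind SAP. Slamf8 ranged from 6.68 to 6.90 in IL10-/- and from 6.68 to 6.90 in IL10+/+ arrays, with a difference of -0.03 (SE 0.10). Slamf9 read 6.05, 6.15, 6.13 and 6.30 in IL10-/- replicates 1 to 4, and 6.34, 5.88, 6.82 and 6.31 in IL10+/+ replicates 1 to 4. The IL10+/+ arrays held both the highest (replicate 3) and the lowest (replicate 2) value. The difference of Slamf9 was -0.18 (SE 0.17, 95% interval -0.56 to 0.20), and it was -0.02 without IL10+/+ replicate 3 and -0.34 without IL10+/+ replicate 2 (unadjusted p = 0.0421 by limma, adjusted p = 0.768). Of the macrophage and monocyte list, 6 of 17 genes were measured and 0 passed the threshold.

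**Figure D3:**
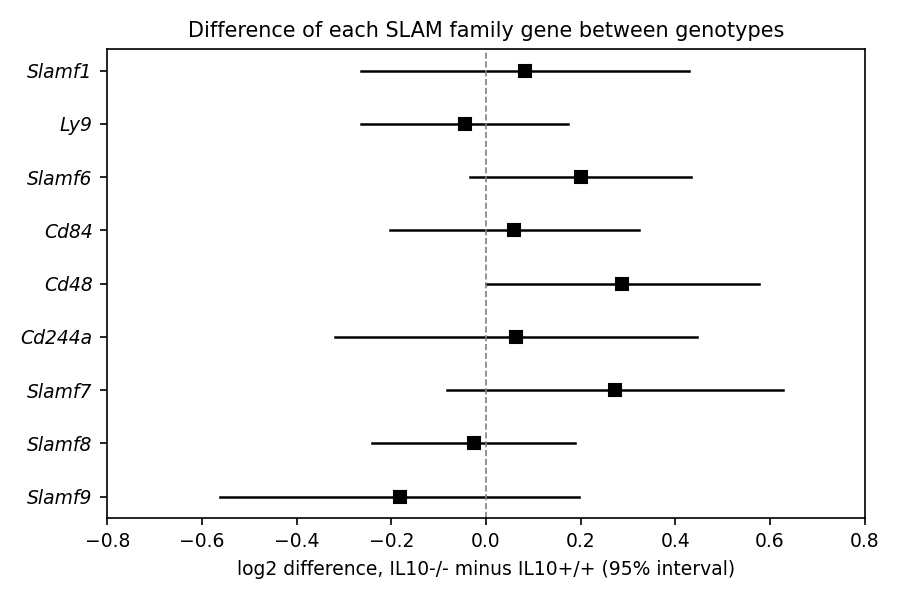
Log2 difference (IL10-/- minus IL10+/+, squares) of each SLAM family gene with its 95% interval from limma (lines), 4 arrays per genotype. All 9 intervals include 0, and that of Cd48 ends closest to it.

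Of 18 genes listed as signalling partners of SLAM receptors, 5 were measured, and 0 passed the threshold in either direction. Sh2d1b1, the gene of the adaptor EAT-2, had a dim signal of 5.55 ± 0.04 in IL10-/- and 5.72 ± 0.46 in IL10+/+ arrays (SD, n = 4 each). Sh2d1b2, the gene of the related adaptor ERT, had 6.23 ± 0.16 in IL10-/- and 6.20 ± 0.07 in IL10+/+ arrays (SD, n = 4 each). Both levels lie within the range of olfactory receptor genes.

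The kinase gene Fyn differed by -0.15 (SE 0.11) and Inpp5d, the gene of the phosphatase SHIP-1, by -0.20 (SE 0.17). Becn1, which encodes the autophagy protein Beclin-1, a partner of SLAMF1 in macrophages, differed by -0.15 (SE 0.14). None of the 3 intervals left out 0. Of 11 follicular helper T cell genes, 3 were measured and 0 passed. The costimulator gene Icos differed by 0.13, the inhibitory receptor gene Pdcd1 by -0.15 and the cytokine gene Il4 by -0.09.

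The 7 genes from Cd244a to Slamf6 stand in 1 run on chromosome 1, in the order Cd244a, Ly9, Slamf7, Cd48, Slamf1, Cd84, Slamf6. Slamf9 and Slamf8 follow further along, beyond other genes. Differences were positive for 6 of the 7, and their median was 0.08. The 45 measured genes within 0.5 Mb of a member had 21 positive differences and a median of -0.01, and 0 passed the threshold.

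The neighbours with the smallest unadjusted p were Ufc1, the conjugating enzyme of the ubiquitin-like protein UFM1 (0.39, SE 0.13, limma adjusted p = 0.777), and the planar polarity gene Vangl2 (-0.21, SE 0.10, adjusted p = 0.999). Vangl2, which follows Slamf6 directly among the measured genes, was the 1 neighbour of 45 whose groups did not overlap, where 2.92% of all genes did not. Alyref2 differed by -0.34, Dcaf8 by -0.28, Dusp23 by -0.17 and Nr1i3 by 0.16.

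**Figure D4:**
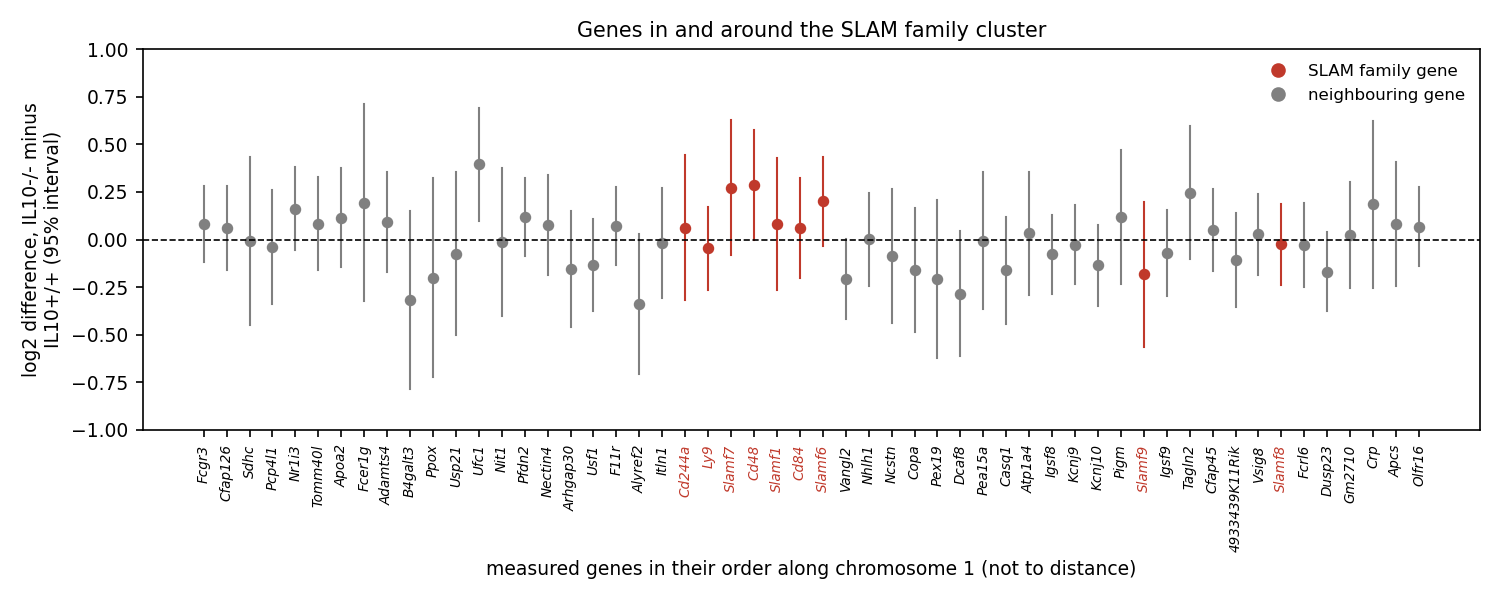
Log2 difference (IL10-/- minus IL10+/+, points) with 95% intervals (lines) of the 9 SLAM family genes (red) and the 45 measured genes within 0.5 Mb of one (grey), in their order along chromosome 1. The intervals of the 9 family genes all include 0, and among the neighbours that of Ufc1 lies above it.

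The 3 members with the largest SD over the 8 arrays were Slamf7 (0.28), Slamf9 (0.28) and Cd244a (0.27). Genes most like each were sought among 6985 others by Pearson's r over the 8 arrays, each taken from the mean of its genotype. Slamf7 was most like Epyc (0.99), Tlx3 (0.98) and Gm597 (0.97). Slamf9 was most like Vpreb3, a B cell gene (0.95), Ifi35 (0.95) and Vstm2a (0.95), and Cd244a was most like Agmo (0.98), Dusp13 (0.98) and Tgfb3 (0.98). These are the top 3 of 6985 genes over 8 arrays and were not tested. Of the 9 genes named, Ifi35 alone had a mean (9.64) above the range of the olfactory receptor genes.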

How the data were processed

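RNA of sorted CD4+CD25+ cells was amplified (Ovation PicoSL) and hybridised to Affymetrix Mouse Gene 2.0 ST arrays. The deposited values are log2 expression per probe set. Per the series' design text, the authors used Partek Genomics Suite for RMA background correction, Partek's GC correction and mean summarization of probes. Affymetrix Expression Console appears too, per the submitters' processing notes. No version and no genome build of the probe sets is given in these sources.

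The table used here held 16378 probe sets. In the platform annotation 7358 had 1 gene, 456 several and 8564 none. Entrez identifiers linked them to current symbols in the RefSeq table of GRCm38.p6, and 99.6% of the placed genes were on chromosomes 1 and 10 to 15. The brightest probe set was taken where a gene had several. No filter on signal was used. IL10-/- and IL10+/+ were compared with limma 3.58.1 (lmFit, eBayes) in R 4.3.3, adjusted by Benjamini-Hochberg over 6986 genes. Exact permutation tests ran over the 70 assignments of arrays, or over the 40320 pairings for correlations. The script was tested on simulated data.

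The members and gene lists were chosen with earlier results of these data known. All 9 members, all measured signalling partners, up to 4 genes per list, up to 6 neighbours by p, and the 3 genes most like each of the 3 most variable members were named; other genes were chosen after their values were seen. Same-numbered arrays did not vary together (correlations of 0.05, -0.32, 0.03 and -0.19 over genes), so no pairing was used. The number of arrays limits the precision. Alternatives covered normalization, signal filter, probe set choice, variance model, array weights, block and left-out arrays.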

Additional observations from a re-analysis of the deposited data

Results flagged for a closer look

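In groups of 4 arrays, 9 of 106 sets of values of the family and listed genes held 1 array far from the other 3, where chance flags about 1 in 20. Ly9 was high (10.72) and Cd244a low (6.15) in IL10+/+ replicate 2. IL10-/- replicate 2 was low for Inpp5d (8.96), Ctla4 (10.88) and Ikzf4 (8.65) and high for Ebf1 (6.92). Socs2 was high in IL10-/- replicate 3 (9.03), Derl3 was low in IL10+/+ replicate 1 (6.71) and Mpo was high in IL10+/+ replicate 4 (6.84).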

How the results depend on the processing

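In all 18 alternatives 0 SLAM family genes passed the threshold. The median difference of the 9 genes ran from -0.01 (without IL10-/- replicate 2) to 0.12 (without IL10-/- replicate 4). Ly9, Slamf6, Cd48, Slamf7 and Slamf9 kept their direction in all 18, with Cd48 at 0.22 to 0.37 and an unadjusted p of 0.0183 to 0.140, and Slamf9 at -0.34 to -0.02. Directions turned for the other 4, with the cause not tested: with array weights Cd84 was at -0.011 and Cd244a at -0.0068, and without both arrays that stood apart Cd84 was at -0.026. With 1 array left out at a time, Slamf1 ran from -0.019 to 0.181, Cd84 from -0.019 to 0.125, Cd244a from -0.091 to 0.140 and Slamf8 from -0.066 to 0.0062. Over all genes, 2 passed the threshold, against 1 with median centring, every probe set tested, array weights, the equal-variance test, the replicate block or both arrays that stood apart left out, 3 with the trend and robust settings, and between 1 and 4 with 1 array left out at a time. The replicate block changed no call of a family gene, and no IL10-/- array correlated best with the IL10+/+ array of its own number. With signal inside the range of olfactory receptor genes, Cd244a, Slamf8 and Slamf9 are limited by signal over background.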

Other observations

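The granzyme genes Gzma and Gzmb, whose products NK cells and killer T cells release, were set beside the SLAM receptors known from NK cells. Gzma read 9.08, 8.40, 7.67 and 8.07 in IL10-/- replicates 1 to 4, and 7.91, 9.65, 7.70 and 7.47 in IL10+/+ replicates 1 to 4. Gzmb read 9.78, 8.75, 9.50 and 9.60 in IL10-/- replicates 1 to 4, and 7.34, 9.88, 7.16 and 8.04 in IL10+/+ replicates 1 to 4. The log2 difference was 0.12 (SE 0.44) for Gzma and 1.30 (SE 0.50, limma adjusted p = 0.873) for Gzmb. Which cells of the fraction gave the granzyme signal was not tested. IL10+/+ replicate 2 had the highest value of both granzyme genes and the lowest of Slamf7 (8.22) and Cd244a (6.15). It was also the array with the widest spread of values (interquartile range of 2.58). Over the 8 arrays, r with the interquartile range was -0.68 for Slamf7 and -0.79 for Cd244a. The part of array spread in this contrast was not tested. The perforin gene Prf1 varied less than the granzyme genes, at 7.55 ± 0.22 in IL10-/- and 7.57 ± 0.18 in IL10+/+ arrays (SD, n = 4 each). These genes were chosen after their values were seen.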
